A study of Mus musculus with 7 samples.

Results

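The enzymes that turn arachidonic acid into prostaglandins and leukotrienes were followed between d3 and d7 after wounding in CD11b+ wound macrophages sorted for the antigen that Adgre1 encodes. The list holds Ptgs1, Ptgs2, Ptges, Hpgds and Hpgd of the prostaglandin branch, and Alox5, Alox5ap, Lta4h, Ltc4s and Alox15 of the lipoxygenase branch. A gene was read from the probe set that carries its symbol alone, and 9 of the 10 genes had such a probe set, each exactly 1. No probe set carried the symbol Ptgs1, so the constitutive cyclooxygenase was not analysed here. The cells came from polyvinyl alcohol sponges placed under the skin of the back of C57BL/6 mice, 8 to 10 weeks old, with no further allele or treatment named in either group. RNA of 3 d3 samples (replicates 1, 3 and 4) and 4 d7 samples (replicates 5, 6, 7 and 8) was hybridized to Affymetrix Mouse Transcriptome arrays, with 1 array each. By their labels these are biological replicates, and how many mice were pooled for each is not given in the sources used here. There was no unwounded group, so the levels are those of macrophages within a wound.

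Macrophages make these lipid mediators in steps. A phospholipase frees arachidonic acid from the membrane, and the acid then enters the cyclooxygenase branch or the lipoxygenase branch. Cyclooxygenases make prostaglandin H2, from which synthases such as Ptges and Hpgds make the prostaglandins E2 and D2, and Hpgd inactivates the products. In the other branch Alox5, helped by the membrane protein Alox5ap, makes leukotriene A4, which Lta4h turns into the neutrophil attractant leukotriene B4 and Ltc4s into the cysteinyl leukotriene C4. Alox15, the mouse 12/15-lipoxygenase, oxidises arachidonic acid at other carbons and takes part in making mediators that are known from the resolution of inflammation.

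Levels are the log2 values that the authors deposited for each probe set. They are compared only within a gene, since probe sets differ in how strongly they bind, apart from the summed marker levels given below. The array background was the highest value of the antigenomic control probes on any array, 5.39, and a gene whose mean lay at or under it on both days is called at the background. Array medians ran from 4.14 to 4.22. The sorting markers were at the same level on both days. Adgre1, the gene of the macrophage antigen used for sorting, lay between 16.82 and 16.87 on all 7 arrays. Itgam, which encodes CD11b, lay between 17.09 and 17.16. Both are high readings on this scale, and Adgre1 had only 4 different values. Other macrophage markers moved. Of the 9 measured, 3 had all d7 arrays above all d3 arrays and 2 had all below. The days did not overlap in 14.7% of the probe sets above the background. Mrc1 was the 1 that passed, with means of 15.26 on d3 and 16.68 on d7 (adjusted p = 0.0263 from limma). All 9 fibroblast markers measured and all 7 keratinocyte markers measured were at the background on both days.

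Of the 9 enzymes, Alox15 differed most between the days. The members Alox15, Alox5 and Ltc4s had all d7 arrays below all d3 arrays, none had all d7 arrays above, and the other 6 overlapped. No member passed the test at an adjusted p under 0.05, against 0.117% of all 65956 probe sets tested (limma, Benjamini-Hochberg adjustment over all of them), 0.0637% of them higher and 0.0531% lower on d7. At an unadjusted p under 0.05 there were 3 of the 9, all lower on d7. At that level 7.66% of all probe sets differed, 3.32% higher and 4.34% lower, and of the probe sets above the background 17.8% differed, 9.73% lower. The days did not overlap in 6% of all probe sets, with d7 higher in 2.62% and lower in 3.38%, and in 14.7% of those above the background, with d7 lower in 8.2%. Above the background 0.376% passed at an adjusted p under 0.05. The median difference over the 9 members was 0.03 on the log2 scale and that over all probe sets was 0. Of the other 6 members, Ptges and Hpgd were at the background and could not show a lower level. By the methods' t-test with Benjamini-Hochberg adjustment no member passed either. Without adjustment 3 did, against 3652 of all 65956 probe sets.

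**Figure D1:**
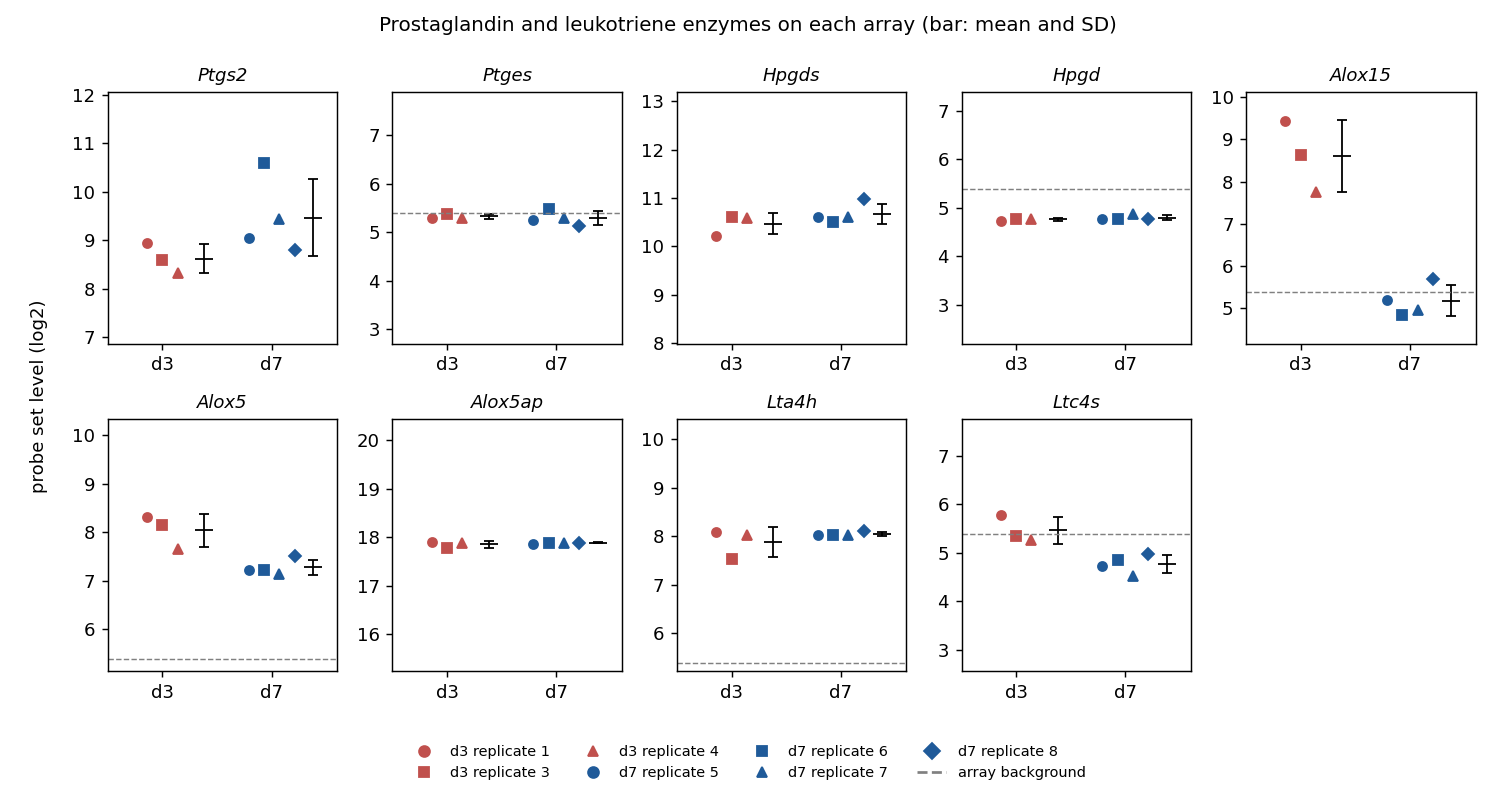
Level of each of the 9 measured enzymes (log2 probe set level, vertical axis, each panel with its own range) on d3 and d7 arrays, 1 point per array, with the group mean and SD as a black bar and the array background of 5.39 as a dashed line. Alox15 lies between 7.75 and 9.44 on d3 and between 4.85 and 5.69 on d7, around the background, while Alox5ap, Lta4h and Hpgds stay near 1 level.

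Alox15 had log2 levels of 9.44, 8.63 and 7.75 on d3 replicates 1, 3 and 4. On d7 it had 5.20, 4.85, 4.97 and 5.69 on replicates 5, 6, 7 and 8. All d7 arrays lay well below the lowest d3 array, and 3 of the 4 d7 values were under the array background. The means were 8.60 ± 0.85 (SD, n = 3) and 5.18 ± 0.37 (SD, n = 4). The difference, d7 minus d3, was -3.43 on the log2 scale (standard error 0.44, 95% interval -4.51 to -2.34), with an unadjusted p = 3e-04 and an adjusted p = 0.101 from limma. As a ratio the d3 level was 10.7-fold the d7 level. With every value under the background set to it, the d3 level was 8.8-fold the d7 level (log2 difference -3.14). The adjusted p moved across the threshold with the processing. Quantile normalization gave 0.0469 and centring of the arrays on their medians 0.0384. Keeping the probe sets whose mean over the 7 arrays lay above the background gave 0.025, a filter that Alox15 passed only through its d3 arrays, and keeping the upper part from the median level on gave 0.0442. It lay between 0.0844 and 0.346 when single arrays were left out, with a difference between -3.86 and -3.01 each time.

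In a sample of sorted cells, fewer cells of a type and less RNA per cell cannot be told apart. Alox15 is also known from eosinophils, and the values of eosinophil markers are given beside it, none of which passed the test. Siglecf, a surface lectin of mouse eosinophils, had 6.50, 6.14 and 5.83 on d3 and between 5.35 and 5.47 on d7 (difference -0.73, adjusted p = 0.315). Il5ra, the receptor chain for interleukin 5, had 4.70, 4.66 and 4.06 on d3 and between 3.57 and 3.89 on d7 (adjusted p = 0.461), but all 7 values were under the background and the difference was 0 with values set to it. Ear6, an eosinophil-associated ribonuclease, had 6.02, 5.82 and 5.60 on d3 and between 5.25 and 5.45 on d7 (adjusted p = 0.469). Cebpe, a transcription factor of granulocyte maturation, had 6.01, 5.09 and 5.51 on d3 and between 4.64 and 5.06 on d7, under the background (adjusted p = 0.647). On d3 Siglecf and Ear6 were, like Alox15, highest on replicate 1 and lowest on replicate 4, while Cebpe was lowest on replicate 3. Ccr3, the eotaxin receptor, had 8.17, 8.80 and 7.28 on d3 and between 8.07 and 8.30 on d7, and overlapped (adjusted p = 0.983). The defining granule genes Epx, at 3.29 on every array, and Prg2, at most 4.55, were at the background. Over the 7 eosinophil markers measured, of which 3 were at the background, 4 had all d7 arrays below all d3 arrays, Il5ra among them. The same held for 3.38% of all probe sets and for 8.2% of those above the background. The log2 of the summed level of these markers ranged from 8.45 to 9.37 on d3 and from 8.72 to 8.88 on d7. Ccr3 made up the largest part of that sum on each array.

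Retnlg, which encodes a resistin-like protein of neutrophils and monocytes, had 11.95, 11.33 and 10.35 on d3 and values between 6.05 and 6.94 on d7. It fell by 4.85 on the log2 scale (adjusted p = 0.0432 from limma, and 0.0476 to 0.191 with single arrays left out). It was the 1 of 13 neutrophil markers that passed, and its array order on d3 was that of Alox15. Ptgs2, which was not lower on d7, had this order on d3 too. Mpo and Elane were at the background. The summed level of the neutrophil markers, with Csf3r the largest part, ranged from 13.89 to 14.19 on d3 and from 13.07 to 13.91 on d7. For the 6 monocyte markers measured it ranged from 18.32 to 18.84 on d3 and from 17.58 to 17.81 on d7, a sum made up mostly of Ly6c2 and Fn1. None of the 6 passed, and they did not go one way. Ly6c2, Ccr2 and Plac8 had all d7 arrays below all d3 arrays (differences of -2.02, -1.07 and -0.98), F13a1 had all d7 arrays above (1.07), and Vcan and Fn1 overlapped. The part of these cells in the Alox15 difference was not tested.

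**Figure D2:**
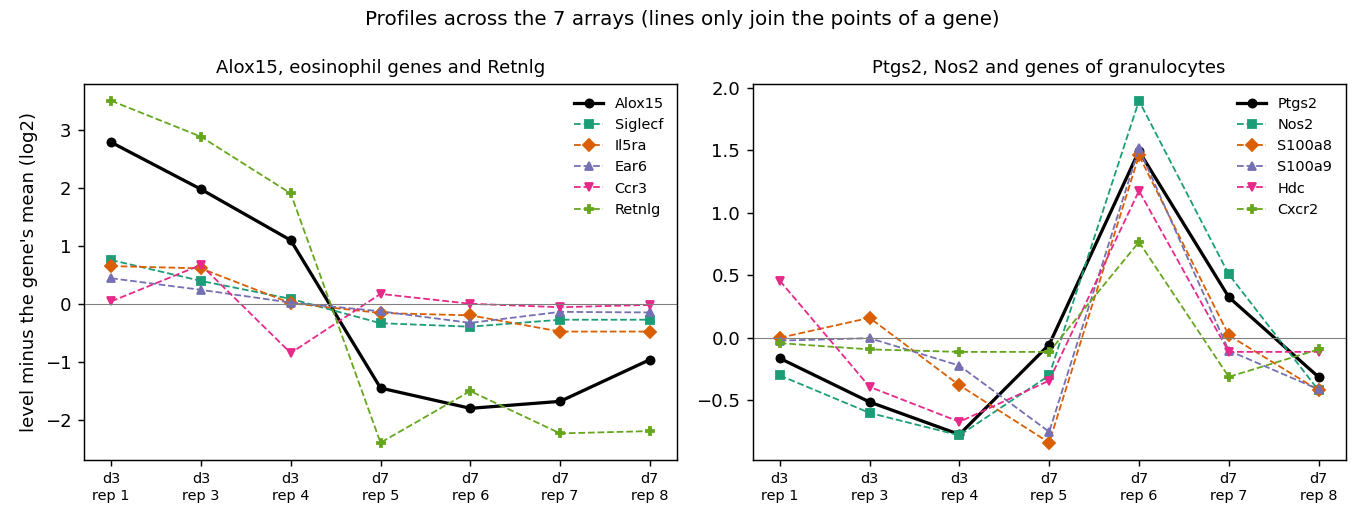
Level of each gene on each array minus its mean over the 7 arrays (log2, vertical axis) against the arrays (horizontal axis), with lines that only join the points of 1 gene. On the left Alox15 and Retnlg are high on the 3 d3 arrays and low on the 4 d7 arrays. Siglecf, Ear6 and Il5ra, the last under the background throughout, lie lower on d7 over a smaller range, and Ccr3 does not. On the right Ptgs2, Nos2, S100a8, S100a9, Hdc and Cxcr2 all peak on d7 replicate 6. Nos2 was chosen by its likeness to Ptgs2. The granulocyte genes there are a selection, and Csf3r, Mmp8, Mmp9 and Ly6g, which are not drawn, do not peak on that array over all 7. Among the d7 arrays alone Mmp8 was highest there, and Csf3r shared its highest value.

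The 3 genes whose levels over the 7 arrays were most like those of Alox15, among 11749 genes above the background, were Gm12250 (Pearson r = 0.988, Spearman rho = 0.893), Spn (r = 0.988, rho = 0.883) and Gm4955 (r = 0.986, rho = 0.964). These are descriptions over 7 arrays that fall into 2 days, without a test. Spn, the leukocyte sialoglycoprotein CD43, had 7.10, 6.94 and 6.89 on d3 and values from 6.26 to 6.48 on d7, so its range was much smaller than that of Alox15. Gm12250 went from a mean of 12.10 to 11.17 and Gm4955 from 14.17 to 13.21.

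Alox5, the 5-lipoxygenase that starts leukotriene synthesis, had 8.32, 8.14 and 7.65 on d3 replicates 1, 3 and 4 and 7.22, 7.22, 7.14 and 7.51 on d7 replicates 5, 6, 7 and 8. The groups did not overlap, but the highest d7 array and the lowest d3 array differed by little. The means were 8.04 ± 0.35 (SD, n = 3) and 7.27 ± 0.17 (SD, n = 4), a difference of -0.76 (standard error 0.18, 95% interval -1.22 to -0.31, adjusted p = 0.408 from limma). Its d3 level was 1.7-fold its d7 level. Ltc4s, the synthase of leukotriene C4, had 5.78, 5.34 and 5.27 on d3, against 4.73, 4.86, 4.53 and 4.97 on d7. Its means were 5.46 ± 0.27 (SD, n = 3) and 4.77 ± 0.19 (SD, n = 4), a difference of -0.69 (standard error 0.16, adjusted p = 0.403). Above the array background was d3 replicate 1 alone, and the difference was -0.13 with values under the background set to it. On d3 Alox15, Alox5 and Ltc4s were highest on replicate 1 and lowest on replicate 4, and so was Ptgs2, which was not lower on d7.

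Alox5ap and Lta4h, on either side of Alox5 in the pathway, differed by less than the spread between replicates. Alox5ap, which presents arachidonic acid to Alox5, had values from 17.77 to 17.90 on d3 and from 17.87 to 17.89 on d7. Its difference was 0.03, with a 95% interval of -0.06 to 0.12 (adjusted p = 0.743). Such a level is among the highest readings of the array, where the scale reaches 19.93, and how far the probes still respond there is not known from the table. Lta4h, the hydrolase that makes leukotriene B4, had 8.09, 7.53 and 8.03 on d3 and values from 8.03 to 8.10 on d7. Its difference was 0.16 (95% interval -0.19 to 0.52, adjusted p = 0.669), and it came from d3 replicate 3 alone, since without that array it was -0.01. On that array the median of the positive control probes was lower, 9.78, than on the rest, 10.01 to 10.09. Lta4h had only 4 different values over the 7 arrays and Alox5ap had 6.

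Alox15 has no sequence in the promoter set used. The upstream sequences of the leukotriene genes with lower d7 values are given with the motifs found in them. RefSeq (GRCm38.p6) places them at chr6:116461179-116461428 (minus strand) for Alox5 and chr11:50238533-50238782 (minus strand) for Ltc4s. Each run is the 250 bases before the annotated start, written 5′ to 3′, and capitals mark matches to the PU.1 core GAGGAA or the GC box GGGCGG on either strand.
Alox5: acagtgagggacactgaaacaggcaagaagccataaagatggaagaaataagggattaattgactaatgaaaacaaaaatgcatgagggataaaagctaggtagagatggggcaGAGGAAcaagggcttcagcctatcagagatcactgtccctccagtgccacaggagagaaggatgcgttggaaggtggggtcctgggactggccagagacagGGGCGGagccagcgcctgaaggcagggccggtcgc
Ltc4s: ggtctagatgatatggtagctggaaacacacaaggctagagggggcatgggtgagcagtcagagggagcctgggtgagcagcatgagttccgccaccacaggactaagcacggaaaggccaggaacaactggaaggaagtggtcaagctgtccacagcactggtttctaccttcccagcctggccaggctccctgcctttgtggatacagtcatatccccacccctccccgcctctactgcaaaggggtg
The Alox5 window held GAGGAA, which lies in 23.3% of 32851 such windows of all promoters, and GGGCGG, which lies in 32.7%. The Ltc4s window held neither. The C/EBP palindrome TTGCGCAA, the E-box CACGTG (6.02% of the windows), the TATA box TATAAA (12.4%) and the STAT6 motif (5.85%) were also searched on both strands and were in neither window. These motifs do not overlap each other here, and a match is a run of letters and not a binding site.

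Ptgs2, the inducible cyclooxygenase, varied more among the d7 arrays than between the days. It had 8.94, 8.59 and 8.33 on d3 replicates 1, 3 and 4, and 9.05, 10.60, 9.43 and 8.79 on d7 replicates 5, 6, 7 and 8. The groups overlapped, with d7 replicate 8 below d3 replicate 1 and d7 replicate 6 above all others. The means were 8.62 ± 0.31 (SD, n = 3) and 9.47 ± 0.80 (SD, n = 4), a difference of 0.84 (standard error 0.46, 95% interval -0.31 to 1.99, adjusted p = 0.662 from limma). Without d7 replicate 6 the difference was 0.47. Its SD on d7 was as large as or larger than that of 99.9% of the genes above the background.

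Of 11749 genes above the background, Nos2, the inducible nitric oxide synthase of activated macrophages, had the profile most like that of Ptgs2 (Pearson r = 0.989 and Spearman rho = 0.991 over the 7 arrays, without a test). Nos2 had 8.21, 7.91 and 7.73 on d3, against 8.21, 10.41, 9.02 and 8.09 on d7. Gm8737 (r = 0.984) and Eaf1, an elongation factor partner (r = 0.982), came next over narrower ranges, with means of 5.90 and 7.89 on d3 and 6.13 and 8.17 on d7. All 3 were highest on d7 replicate 6, which follows from choosing them by their likeness to Ptgs2. Some genes of granulocytes were high on that array too, and others were not. S100a8, a calcium-binding protein abundant in neutrophils, had 12.06 there and between 9.76 and 10.62 on the other d7 arrays, and its partner S100a9 had 10.95 against 8.68 to 9.33. The chemokine receptor Cxcr2 had 8.31 against 7.23 to 7.45, and Hdc, which makes histamine, had 8.30 against 6.78 to 7.01. Csf3r, the receptor for granulocyte colony-stimulating factor, had 12.49 there and between 12.20 and 12.49 on the other d7 arrays, and Mmp9, a gelatinase, had 9.92 against 9.59 to 10.07. Mmp8, the neutrophil collagenase, had 10.88 against 10.22 to 10.70, and Retnlg had 6.94 against 6.05 to 6.25. Mmp8 and Retnlg were thus highest there among the d7 arrays, but lower than on each d3 array. Ly6g, a neutrophil surface marker, was 5.29 on that array and 5.21 to 5.58 on the others, and the granule genes Mpo, Elane, Ngp and Ltf were at the background on all arrays. The cells had been sorted for the macrophage antigen after CD11b+ isolation. The part of granulocytes in the Ptgs2 value of d7 replicate 6 was not tested.

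The upstream sequence of Ptgs2 is shown because this gene carries a rare motif among the members. RefSeq (GRCm38.p6) places the 250 bases before its annotated start at chr1:150099781-150100030 (plus strand). Capitals mark the PU.1 core, the GC box and the C/EBP palindrome TTGCGCAA, in this order.
Ptgs2: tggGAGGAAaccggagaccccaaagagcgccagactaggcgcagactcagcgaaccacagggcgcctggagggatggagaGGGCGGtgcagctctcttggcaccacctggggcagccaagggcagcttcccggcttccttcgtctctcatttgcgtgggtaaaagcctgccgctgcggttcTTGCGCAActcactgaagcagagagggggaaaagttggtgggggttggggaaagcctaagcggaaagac
The palindrome TTGCGCAA, a form of the site that C/EBP factors bind, was in 0.164% of the 32851 windows, and Ptgs2 was the 1 member with it among the 8 that have a promoter sequence in the table. The E-box, the TATA box and the STAT6 motif (5.85%) were not in this window.

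The synthases and the inactivating enzyme of the prostaglandin branch showed no difference between the days that their spread would allow to be called. Hpgds, which makes prostaglandin D2, had 10.22, 10.60 and 10.58 on d3, against 10.60, 10.51, 10.60 and 10.97 on d7, with a difference of 0.20 (95% interval -0.17 to 0.58, adjusted p = 0.662). It is known from mast cells as well as macrophages, and here 10 of 11 mast cell and basophil markers, with Cpa3, Kit and Fcer1a among them, were at the background, while Hdc was the 1 above it. Their summed level, with Hdc the largest part, ranged from 7.83 to 8.37 on d3 and from 7.95 to 8.83 on d7. Ptges, the inducible prostaglandin E synthase, was at the background on both days, with means of 5.33 ± 0.04 (SD, n = 3) and 5.28 ± 0.15 (SD, n = 4). Its highest array, 5.48, was d7 replicate 6, the one with the highest Ptgs2. Hpgd, which oxidises prostaglandins to inactive forms, was at the background with values from 4.73 to 4.87 on all arrays. For these 2 genes a difference was not detectable at this signal.

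**Figure D3:**
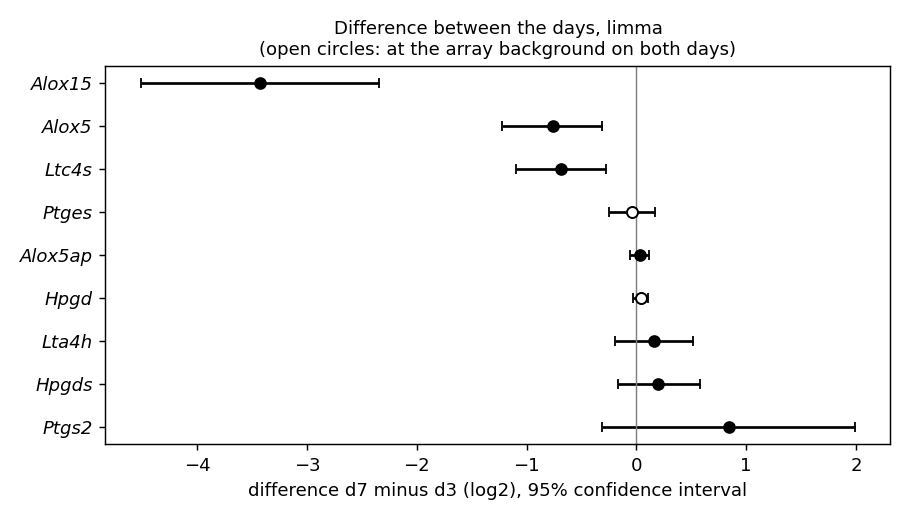
Difference d7 minus d3 (log2, horizontal axis) with its 95% interval from limma for each of the 9 measured enzymes, with open circles for Ptges and Hpgd, whose means lay at or under the background. Alox15 stands at -3.43 and Alox5 and Ltc4s at -0.76 and -0.69 with intervals below 0, while the other intervals span 0 and that of Ptgs2 is the widest, from -0.31 to 1.99.

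Outside the 9 enzymes, the genes of arachidonate metabolism that passed the test were all higher on d7. Of all probe sets 0.117% passed, and of those above the background 0.376%. Among 23 measured genes that free, bind or re-esterify arachidonic acid the count that passed limma was 0. Without adjustment 6 were under 0.05, 3 in each direction, against 7.66% of all probe sets and 17.8% of those above the background. None passed by the methods' t-test with Benjamini-Hochberg adjustment. Without it 5 did, against 3652 of all 65956 probe sets. The median difference of this list was 0, and over its genes above the background 0.02. Lpcat2, which puts acyl chains back on lysophospholipids and makes platelet-activating factor, had 11.31, 10.68 and 10.90 on d3 and between 9.92 and 10.17 on d7 (difference -0.88, adjusted p = 0.231). Pla2g7, which degrades platelet-activating factor, had between 14.75 and 15.10 on d3 and between 15.25 and 15.47 on d7 (adjusted p = 0.415). Pla2g15, the lysosomal phospholipase A2, had between 13.08 and 13.93 on d3 and between 14.17 and 14.58 on d7 (adjusted p = 0.624). Mboat1, a lysophospholipid acyltransferase, had a mean of 6.86 on d3 and 6.40 on d7 and the groups touched (adjusted p = 0.64).

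Of 14 other prostanoid synthases, reductases and transporters 1 passed, higher on d7, with a median difference of 0.03. Over the 8 above the background the median was 0.29, against 0 over all probe sets above it. Without adjustment 4 were under 0.05 by limma, all higher on d7, with Cbr3, at the background, among them. Of all probe sets 7.66% were, and of those above the background 17.8%. The 1 that passed was Abcc1, an exporter of leukotriene C4 and of glutathione conjugates and so not a synthase. Abcc1 had 9.08, 9.24 and 9.30 on d3, against 10.54, 10.35, 10.34 and 10.27 on d7, with no overlap. It rose 2.25-fold (difference 1.17, standard error 0.08, adjusted p = 0.029). Akr1b8, an aldo-keto reductase, had 11.07, 9.79 and 10.54 on d3 and between 11.90 and 12.09 on d7 (adjusted p = 0.276). Ptgr1, which inactivates leukotriene B4 and reduces oxidised prostaglandins, had 8.98, 8.30 and 8.33 on d3 and between 9.31 and 9.57 on d7 (adjusted p = 0.287). For both the lowest d7 array lay above the highest d3 array. Prxl2b, a prostamide synthase, had means of 11.82 ± 0.38 (SD, n = 3) and 12.22 ± 0.18 (SD, n = 4) and overlapped (adjusted p = 0.662).

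Of 20 other lipoxygenases and enzymes of leukotriene and epoxide metabolism 2 passed, both higher on d7, with a median difference of 0.01. Over the 9 above the background the median was 0.04. Without adjustment 4 were under 0.05 by limma, all higher on d7, with Cyp2j6, at the background, among them. Of all probe sets 7.66% were, and of those above the background 17.8%. Mgst1, a membrane glutathione transferase of the same superfamily as Alox5ap and Ltc4s, had 8.02, 7.96 and 7.88 on d3, against 9.30, 9.76, 9.42 and 9.45 on d7. It rose 2.88-fold (difference 1.53, standard error 0.11, adjusted p = 0.0301). Ephx1, the microsomal epoxide hydrolase, had 7.08, 6.61 and 6.73 on d3 and values from 8.12 to 8.18 on d7, and rose 2.53-fold (difference 1.34, standard error 0.11, adjusted p = 0.0344). Both are best known for handling foreign compounds and not for making leukotrienes. Mgst3, a relative of Mgst1, had means of 6.81 and 7.20 and the groups touched (adjusted p = 0.582), and Cyp4f16, a fatty acid hydroxylase, went from a mean of 8.12 to 7.99 (adjusted p = 0.656). The other lipoxygenases listed, Alox12, Alox12b, Alox12e, Alox8 and Aloxe3, had values between 3.52 and 3.90 on all arrays, under the background. The calls rested on the full set of arrays. With single arrays left out, Abcc1 and Ephx1 kept theirs only without d3 replicate 1 (adjusted p = 0.0413 and 0.0143, and at most 0.149 and 0.176 otherwise), and Mgst1 only without d3 replicate 1 or d7 replicate 6 (adjusted p = 0.0486 and 0.0467, and at most 0.151).

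**Figure D4:**
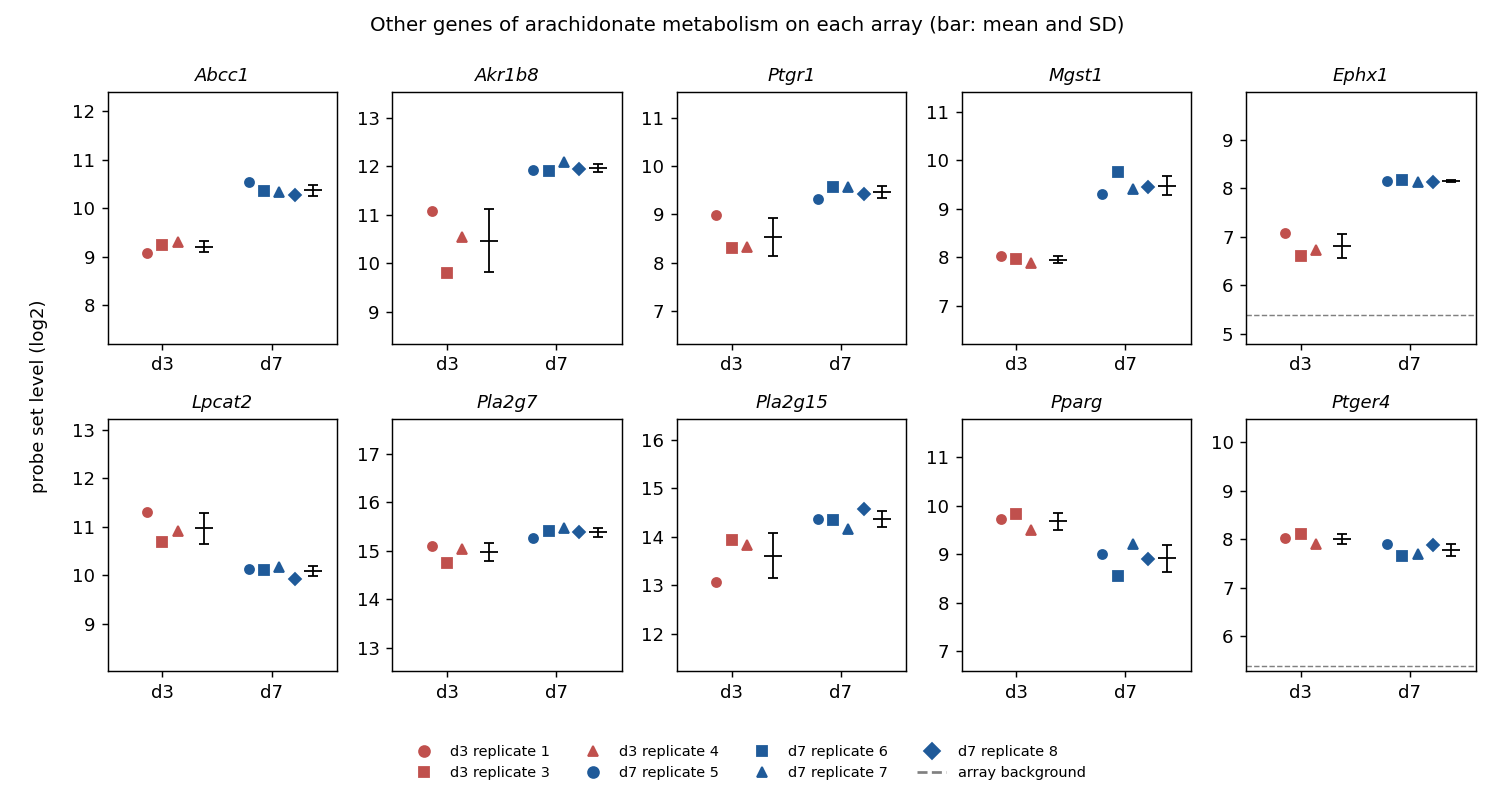
Level of 10 further genes of arachidonate metabolism (log2 probe set level, vertical axis, each panel with its own range) on d3 and d7 arrays, 1 point per array, with the group mean and SD as a black bar and the array background as a dashed line where it falls in the range. Abcc1, Mgst1 and Ephx1, the 3 that passed the test, have all d7 arrays above all d3 arrays, and so do Akr1b8, Ptgr1, Pla2g7 and Pla2g15, which did not pass.

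Among 16 measured eicosanoid receptors and related sensors the count that passed limma was 0. Without adjustment 2 were under 0.05, both lower on d7, against 7.66% of all probe sets and 17.8% of those above the background. The median difference was -0.01, and over the genes above the background -0.13. By the methods' t-test none passed with Benjamini-Hochberg adjustment. Without it 2 did, against 3652 of all 65956 probe sets. Pparg, a nuclear receptor that binds oxidised fatty acids and whose ligands include products of the Alox15 pathway, had 9.72, 9.82 and 9.49 on d3 and between 8.55 and 9.21 on d7 (difference -0.76, 95% interval -1.19 to -0.34, adjusted p = 0.353). Its groups did not overlap. Ptger4 and Ptger2, receptors for prostaglandin E2, had differences of -0.23 and 0.23 (adjusted p = 0.647 each), and Cmklr1, a receptor for chemerin and a reported sensor of resolvin E1, had -0.14 (adjusted p = 0.662). Cysltr1, a receptor for cysteinyl leukotrienes, had values from 11.68 to 11.83 on all arrays. Ltb4r1, the receptor for leukotriene B4, had between 6.83 and 7.59 on d3 and between 6.73 and 7.19 on d7. The receptors Ptgdr, Ptgdr2, Ptger3, Ptgfr, Tbxa2r and Oxgr1 were at the background on both days.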

How the data were processed

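RNA of the sorted CD11b+ wound macrophages was amplified, labelled with biotin and hybridized by the authors (the labels name a WT Pico kit and the methods a WT PLUS kit). The authors deposited log2 levels per probe set. Affymetrix Expression Console, without a version, is the tool in the submitters' processing notes. The methods name Genespring GX and dChip for their own analysis, and how the arrays were background corrected and normalized is not given in the sources used here. That the scale is log2 follows from the range, 1.82 to 19.93. Only 12129 of 65956 probe sets have 7 different values and 3754 have 1 value on all arrays, for a reason not known here.

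Of 72688 probe sets, 6732 array controls were left out. Genes were named only from probe sets with 1 symbol, 2176 having several and 33142 none listed. Older symbols were matched by gene ID. For the 354 genes with more than 1 probe set, that of the highest mean was taken. The days were compared over all 65956 probe sets by lmFit and eBayes of limma 3.58.1 (R 4.3.3), with two-sided tests, no covariates and a threshold of 0.05. The script was tested on simulated data. The number of arrays and 70.0% of probe sets with a mean at or under the background limit the precision, and p-values measure the spread between these samples only. The members and lists were chosen with earlier results of these data known. Named are the 9 members, in each pathway list the genes that passed or up to 4 with the smallest p above the background, the 3 genes most like Alox15 and Ptgs2, and markers. Some further markers and receptors were named after their values were seen. A summed marker level is the log2 of the sum of the unlogged levels, so the probe sets with the highest readings weigh most. Other settings were eBayes with a trend or robust, quantile normalization, median centring, filters at the background and at the median level, 1 probe set per gene, averaging the probe sets of a gene, array weights, the methods' t-test with and without adjustment, and each array left out. Setting values under the background to it and keeping only probe sets with 7 different values are settings chosen later, after seeing the data. Sequences were read and plots drawn in Python 3.11.15 (matplotlib 3.10.9, numpy 2.4.6, pandas 2.3.3).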

Additional observations from a re-analysis of the deposited data

Results flagged for a closer look

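In 6 of 32 groups of 4 d7 arrays examined, 1 array lay apart from the other 3 by a gap above Dixon's critical share of the whole range, which chance gives in about 1 of 20 groups. For Alox5ap it was d7 replicate 5, at 17.87 against 17.89 on each of the others. Lta4h had 8.10 on d7 replicate 8 and 8.03 on the others, and Hpgd, at the background, had 4.87 on d7 replicate 7 and 4.78 on the others. Cyp4f16 had 7.91 on d7 replicate 6 and 8.01 on the others. Cmklr1 had 8.80 on d7 replicate 5 and 8.99 to 9.03 on the others, and Ear6 had 5.25 on d7 replicate 6 and 5.43 to 5.45 on the others. Lta4h, Hpgd and Cyp4f16 have the same value on 3 d7 arrays, so any other value stands apart there. Ptgs2 on d7 replicate 6 was not among them.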

How the results depend on the processing

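Alox15, Alox5, Ltc4s, Ptgs2 and Hpgds kept their direction under each of the 18 other settings and the 2 chosen after seeing the data that gave a value. The members that passed numbered 1 after quantile normalization, with median centring, above the array background and at or above the median level. That member was Alox15 each time, with differences of -3.41, -3.40, -3.43 and -3.43. Ltc4s, Ptges and Hpgd were not among the probe sets whose mean over the 7 arrays lay above the background, and Alox15 was among them only through its d3 arrays. Keeping only the 12129 probe sets with 7 different values left 4 members, Ptgs2 and 3 that passed, Alox15, Alox5 and Ltc4s (-3.43, -0.76 and -0.69, adjusted p = 0.00339, 0.0401 and 0.0423). These 3 also passed the methods' t-test unadjusted, with the same differences. The filters leave fewer probe sets to adjust over. Requiring 7 different values also leaves out probe sets that read the same on several arrays, and so keeps those that vary. Ltc4s passed there although only d3 replicate 1 was above the background, and its difference was -0.13 with values set to it. Abcc1, Mgst1, Ephx1 and Retnlg lost their calls in the methods' t-test with adjustment (adjusted p = 0.0933, 0.0976, 0.107 and 0.131). They also lost them with values under the background set to it. All values of these genes were above the background, so that setting altered the fit over all probe sets and not their levels. Retnlg lost its call with robust eBayes (0.0599) and array weights (0.0527) too. No member passed with any array left out, with differences from -3.86 to -3.01 for Alox15. Small differences turned sign. Ptges had 0.02 with values under the background set to it and 0.01 without d7 replicate 8 (range -0.11 to 0.01 over the arrays left out), Alox5ap and Lta4h had -0.01 without d3 replicate 3 (up to 0.05 and 0.27), and Ccr3 had -0.33 without d3 replicate 4 (up to 0.43).

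Of all probe sets 77 passed, and 169 did after quantile normalization and 223 with median centring. The filters gave 374 above the background and 208 at or above the median level. The methods' t-test gave 3652 unadjusted and 13 with its adjustment. Values under the background set to it gave 21, and an array left out gave 1 to 212. Of the 12129 probe sets with 7 different values 824 passed, beside 3 of the 4 members among them. In the methods' t-test unadjusted 5 of the arachidonate release genes, 4 of the other prostanoid genes, 4 of the other lipoxygenase and leukotriene genes and 2 receptors passed, and with its adjustment 0 in each. Setting values to the background also left 0 among the prostanoid and the leukotriene genes. With 7 different values 1 arachidonate release gene, 3 prostanoid genes, 3 leukotriene genes (2 with all probe sets) and 1 receptor passed. With an array left out the prostanoid count ran from 0 to 2 and the leukotriene count from 0 to 2. Where no reason is given, the cause was not tested. No paired analysis was possible because the replicate numbers of the days, 1, 3 and 4 on d3 and 5 to 8 on d7, share none.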
